A study of Homo sapiens with 33 samples.

Results

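The respiratory chain passes electrons from NADH and succinate to oxygen and couples this to proton pumping across the inner mitochondrial membrane. Its genes were taken by name. A gene belonged to the set if its name began with NDUFA, NDUFB, NDUFC, NDUFS, NDUFV, UQCR or COX4 to COX8, or was SDHA, SDHB, SDHC or SDHD, and was no pseudogene, antisense or clone name. The MT-ND, MT-CO, MT-ATP and MT-CYB genes of the mitochondrial genome were added. This gave 92 of the 58302 gene rows, 79 of them nuclear and 13 mitochondrial. Complexes I, III and IV hold subunits from both genomes, complex II (succinate dehydrogenase) is wholly nuclear, and of complex V, the ATP synthase, the set held only the pair MT-ATP6 and MT-ATP8. Mitochondrial genes are transcribed as long polycistronic RNAs from both strands of a small circular genome and cut apart at the tRNAs between them. The nuclear genes each have their own promoter, so the RNA of one complex comes from 2 separately transcribed genomes.

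RNA was sequenced from 33 libraries of 6 cell lines. H2052, H2452, H28 and MSTO-211H are malignant pleural mesothelioma (MPM) lines that the study classed as sensitive to palbociclib, an inhibitor of the cell cycle kinases CDK4 and CDK6. The resistant lines were MPP89, an MPM line with mutated RB1, and MeT-5A, mesothelial cells immortalized with SV40 antigen. Each line is a single culture history, so a difference between lines is a difference between these cells and not between tumour types. Cells received palbociclib at 1 µM, or its solvent DMSO at 0.1%, for 9 or 10 days, and each treated library had a DMSO library of the same line and experiment as its pair. There were 14 such pairs: 2 of H2052, 3 each of H2452, H28 and MSTO-211H, 2 of MPP89 and 1 of MeT-5A. All 3 resistant pairs had 9 days of treatment, while 4 of the 11 sensitive pairs had 10, so day was not balanced between the classes. For each sensitive line 1 library was taken 48 h after palbociclib was washed out, and 1 MeT-5A library was untreated. The labels give the washout libraries 10 days of palbociclib before these 48 h. Their DMSO and palbociclib libraries are labelled with 10 days, so time in culture may differ as well.

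Values were CP20M, reads per gene scaled to 20000000 per library and rounded up, so each is a share of the library and not an amount per cell. In such bulk RNA, fewer cells that make a transcript and less of it per cell cannot be told apart. Depth could be estimated from the step between low values in 23 libraries (12780000 to 19910000 reads). Replicates are numbered experiments, and the p-values measure the spread between these experiments. KRT8 and KRT18, keratins of mesothelial cells, were above 1000 CP20M in all 33 libraries, while the mesothelial markers KRT5 and ITLN1 were under 100 in all of them. The remaining mesothelial markers were mixed: under 100 were UPK3B in 25 of 33 libraries, PDPN in 18, CALB2 in 15, MSLN in 9 and WT1 in 4. Mitochondrial rRNA split the libraries: MT-RNR1 was at or over 4000 CP20M in both libraries of 5 pairs (H2452 2, H28 2, MSTO-211H 2, MPP89 2 and MeT-5A 1) and much lower in most others. For the mitochondrial mRNAs 3 libraries stood apart: palbociclib library 3 of H2452, palbociclib library 2 of MSTO-211H and the H28 washout library. The values without them stand beside the results they move most.

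With palbociclib, the mitochondrial and nuclear genes of the respiratory chain parted in the sensitive lines. Over the 11 pairs, 12 of 13 mitochondrial genes rose more than 1.5-fold at a false discovery rate (FDR) under 0.05, against 5.58% of the 17803 genes tested that rose. Of the 74 nuclear genes with enough reads to be tested, 1 fell by that rule, against 9.37% of all genes, and none rose. The median log2 fold change was 0.83 for the 13 mitochondrial genes, -0.22 for the 74 nuclear genes and -0.11 for all genes. The mitochondrial rise was uneven between experiments. Without H2452 experiment 3 and MSTO-211H experiment 2, a choice made after seeing the data, all 13 were still higher, 11 of them at FDR under 0.05, but only MT-ND1, MT-ND2 and MT-CYB, 3 of 13, stayed past 1.5-fold and the median was 0.49. With the mean of each line as the unit, 10 of 13 mitochondrial genes were called.

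MT-ND1, a core subunit of complex I that helps to form the ubiquinone site, had the largest estimated rise. In H2052 it was at 3260 and 3755 CP20M in DMSO and at 4085 and 6560 with palbociclib. In H2452 it was at 2214, 3192 and 3854 in DMSO and at 5244, 4335 and 23622 with palbociclib. The treated libraries were above the DMSO libraries in both lines, and the last H2452 library was several times higher than the others of its line. In H28 the DMSO libraries were at 6833, 7693 and 8566 CP20M and the treated ones at 13117, 16432 and 16155. In MSTO-211H the values were 3738, 2537 and 6061 in DMSO and 5974, 15382 and 9144 with palbociclib. The H28 groups were apart, whereas in MSTO-211H the highest DMSO library lay above the lowest treated one. MT-ND1 rose in 11 of 11 pairs (log2 fold change 1.11 ± 0.21 SE, 2.16-fold, limma adjusted p = 0.00069), and its change over the pairs ran from 0.32 to 2.61. Without H2452 experiment 3 and MSTO-211H experiment 2 its estimate was 0.78, that of MT-ND2 0.69, that of MT-CYB 0.62, and those of the other 10 lay between 0.39 (MT-ND4L) and 0.57 (MT-ND6).

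The other complex I genes of the mitochondrial genome were called higher as well. MT-ND2 rose by 1.04 ± 0.25 (SE, log2, adjusted p = 0.0037) and was higher in 11 of 11 pairs. MT-ND6, which lies on the strand opposite to the other 12 genes, rose by 1.04 ± 0.31 (adjusted p = 0.013) and was higher in 9 of 11 pairs. In DMSO its lowest, median and highest libraries were at 772, 1269 and 3282 CP20M, and with palbociclib at 1075, 2478 and 12385. MT-ND3 rose by 0.90 ± 0.27, MT-ND5 by 0.83 ± 0.21, MT-ND4 by 0.76 ± 0.21 and MT-ND4L by 0.75 ± 0.25. MT-ND4L, a small membrane subunit, was higher in only 7 of 11 pairs, the fewest of the 13.

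In complex III, MT-CYB encodes cytochrome b, the subunit that carries the quinol sites. Its lowest, median and highest DMSO libraries were at 4276, 7942 and 18947 CP20M, and the treated ones at 5081, 13951 and 38625. The groups overlapped, as the lines differed in level, but each treated library was above its own DMSO library. The rise was 0.81 ± 0.15 (SE, log2, adjusted p = 0.00074), higher in 11 of 11 pairs. In complex IV, cytochrome c oxidase, MT-CO1, MT-CO2 and MT-CO3 form the catalytic core. MT-CO2 rose by 0.67 ± 0.15 and MT-CO1 by 0.59 ± 0.12, and both were higher in 11 of 11 pairs. MT-CO3 was higher by 0.56 ± 0.13 (adjusted p = 0.0025), also in 11 of 11 pairs, and at 1.48-fold missed the fold limit that MT-CO1 passed at 1.504-fold. These 3 had the smallest estimates of the 13 and MT-ND1, MT-ND2 and MT-ND6 the largest, though the order was not tested and MT-ND4L was lowest without the experiments that stood apart. The ATP synthase pair rose by 0.86 ± 0.26 (MT-ATP6) and 0.96 ± 0.32 (MT-ATP8), each higher in 8 of 11 pairs.

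These values are not independent of each other. The mitochondrial genes come from long RNAs that are cut apart, and all were high together in the libraries that stood apart. Their counts of calls are therefore not counts of separate results. In addition, MT-ATP8 and MT-ATP6 share 46 bases and MT-ND4L and MT-ND4 share 7, in different reading frames on 1 mRNA each. The stretches are printed from GRCh38, chrM:8507-8592 and chrM:10740-10786, plus strand, with capitals for the shared bases. A read that covers the capitals overlaps both genes.
MT-ATP8 and MT-ATP6: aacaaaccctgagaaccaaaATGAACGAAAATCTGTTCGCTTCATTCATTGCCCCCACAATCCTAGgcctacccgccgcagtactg
MT-ND4L and MT-ND4: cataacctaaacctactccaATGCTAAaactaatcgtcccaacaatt
Within each pair the estimated rises were close, 0.96 and 0.86 for the first and 0.75 and 0.76 for the second. Genes without shared bases could be as close, such as MT-ATP6 (0.86) and MT-ND5 (0.83). A nuclear copy of part of the mitochondrial genome on chromosome 1 also matches some of these genes. Of the 75-base windows of MT-CO1, 36.6% occur there too, 34.4% of those of MT-ND2, 28% of MT-ATP6, 16.3% of MT-ND1, 14.9% of MT-CO3 and 10.5% of MT-CO2, and none of the other 7 genes. The rows of the copies had low medians over 33 libraries, 304 CP20M for MTND2P28, 227 for MTCO1P12, 333 for MTATP6P1 and 0 for MTND1P23. In their highest libraries they reached 1798, 1630, 3071 and 2074 CP20M. The windows are shorter than the reads that the study describes, so their shares may overstate how many reads fit both places. Reads that fit both places cannot be assigned with certainty, while MT-CYB, MT-ND3, MT-ND4, MT-ND4L, MT-ND5, MT-ND6 and MT-ATP8 have no such windows.

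**Figure D1:**
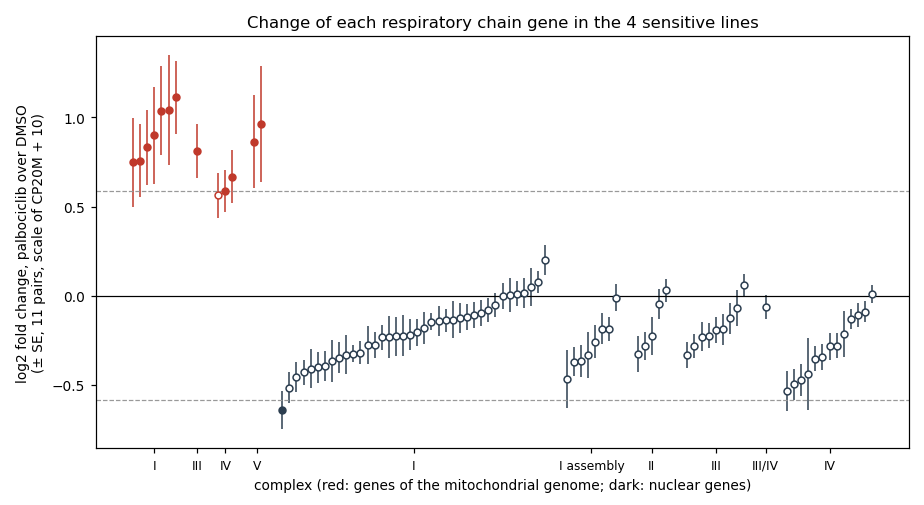
Log2 fold change (palbociclib over DMSO, 11 pairs of 4 sensitive lines, scale of CP20M + 10) of the 13 mitochondrial (red) and 74 nuclear (dark) respiratory chain genes, sorted within each complex. Bars are standard errors, filled points passed FDR under 0.05 and 1.5-fold (dashed lines); the 13 mitochondrial genes lie between 0.56 and 1.11 and the nuclear ones between -0.64 and 0.20.

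Among the nuclear genes, NDUFB6 was the 1 called. It encodes an accessory subunit in the membrane arm of complex I (chromosome 9, bases 32553001 to 32573184, minus strand). In H28 it was at 334, 338 and 318 CP20M in DMSO and at 160, 256 and 147 with palbociclib. In H2052 it went with treatment from 597 and 769 to 378 and 310. In both lines the treated libraries lay below the DMSO ones. In H2452 it was at 434, 422 and 429 in DMSO and at 390, 262 and 269 with palbociclib, again without overlap, whereas in MSTO-211H (636, 716 and 879 against 597, 446 and 654) the groups overlapped. NDUFB6 fell in 11 of 11 pairs, by 0.64 ± 0.11 on the log2 scale (SE, adjusted p = 0.00034). In the resistant pairs it was at 756, 943 and 858 CP20M in DMSO and 766, 850 and 896 with palbociclib.

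Below the fold limit, the nuclear genes leaned the other way from the mitochondrial ones. At FDR under 0.05 without a fold limit, 37 of 74 were lower and 0 higher, against 33.7% and 14.6% of all genes, and 65 of 74 estimates were below 0. This lean depends on the scaling. Under median-of-ratios scaling, which centres the typical gene, the median of all genes moved from -0.11 to 0.06, the nuclear median from -0.22 to -0.03 and the mitochondrial median from 0.83 to 1.03. The nuclear genes past FDR 0.05 were then 7 lower and 7 higher, and of all called genes 65.6% had risen, against 37.3% with the deposited scaling. MT-CO3 was then called as well, so 13 of 13 mitochondrial genes rose, and NDUFB6 was not called. A scaling factor moves all genes of a library together, so the gap between both groups of genes does not depend on it, while the direction of the nuclear genes against 0 does. With line means as units, 7 nuclear genes in place of 37 were lower at FDR under 0.05 and 0 higher.

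By complex, the nuclear medians lay close together. The 38 genes of complex I had a median log2 change of -0.21, with 17 lower at FDR under 0.05, and the 8 complex I assembly factors (NDUFAF genes) one of -0.30, with 6 lower. Of the 5 rows of complex II, 2 were lower (median -0.22), of the 9 of complex III 5 were lower (-0.19), and of the 13 tested genes of complex IV 7 were lower (-0.28). Complex II, with no mitochondrial subunit, was therefore in the range of the other nuclear genes. SDHA, its flavoprotein, changed by -0.05 ± 0.08 (SE, adjusted p = 0.67), and SDHC, a membrane anchor, by 0.03 ± 0.06 (adjusted p = 0.71). SDHB, the iron-sulphur subunit, was lower by 0.28 (adjusted p = 0.0088, 10 of 11 pairs), and SDHD, the other anchor, by 0.33 (adjusted p = 0.018, 8 of 11 pairs). Another row with the name SDHD, for an overlapping gene, changed by -0.22 (adjusted p = 0.097), and reads shared by both rows make either uncertain. The sign of the SDHA estimate turned to 0.15 with median-of-ratios scaling and to 0.02 without the pair of experiments named above.

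Several subunits of complexes I and IV exist as isoforms that tissues use differently. The ubiquitous forms COX4I1, COX6A1, COX6B1, COX7A2 and COX8A were abundant. Their log2 changes were -0.13 (COX4I1), -0.09 (COX6A1), 0.01 (COX6B1), -0.50 (COX7A2, limma adjusted p = 0.00044) and -0.35 (COX8A, adjusted p = 0.001), none of them past 1.5-fold. COX7A2L, a related gene of complexes III and IV, changed by -0.06. COX7B, a small subunit of complex IV, was lower by 0.53 (adjusted p = 0.0016). COX7B and COX7A2 were each lower in 11 of 11 pairs. The alternative forms were mostly silent. COX7B2 was at 0 in all 33 libraries, COX4I2, COX6A2 and COX8C reached at most 2, 6 and 5 CP20M, and the muscle form COX7A1 at most 90, so these 5 were not tested. UQCRH, the hinge protein of complex III, and its intronless relative UQCRHL, which share reads, changed by -0.22 and -0.23. The row NDUFC2-KCTD14, a readthrough of NDUFC2 and its neighbour, shares reads with NDUFC2 in the same way.

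Nuclear respiratory chain genes are known for promoters with sites for NRF1 and for ETS factors such as GABPA. RefSeq promoters (GRCh38.p14) matched 61 of the 74 tested nuclear genes. In the 250 bases before the start, the NRF1 motif (GCGC, any 2 bases, GCGC) was present, on either strand, in 19.7% of the 61 and in 7.58% of 27305 promoters, and the ETS motif CCGGAAG in 24.6% and 8.82%. The E2F letters TTTCCCGC or TTTGGCGC were in 6.56% and 1.96%, the CRE TGACGTCA in 3.28% and 1.77%, the CCAAT box CCAAT in 27.9% and 33%, and the ERR letters TCAAGGTCA in 0 of 61 and 0.319%. The YY1 letters AAGATGGC were in 0 of 61 and 1.37% of these windows, but in 13.1% and 3.03% when the 50 bases after the start were added. The median log2 change with palbociclib was -0.30 for the 12 genes with an NRF1 match and -0.21 for those without, -0.18 for the 15 with an ETS match and -0.23 for those without. With the 50 bases after the start added, the NRF1 order turned, to -0.20 for 14 genes with a match and -0.22 for those without. The ETS medians were then -0.16 for 16 genes and -0.23 for those without. These differences were not tested. The upstream sequences of NDUFB6 (chr9:32573160-32573409, minus strand), NDUFA9 (chr12:4648864-4649113, plus strand) and COX7B (chrX:77899218-77899467, plus strand) are shown because these were among the nuclear genes lower in 11 of 11 pairs. Capitals mark a match to any of these motifs, an NRF1 match in NDUFA9 and an E2F match in COX7B. NDUFB6 has none in this window.
NDUFB6: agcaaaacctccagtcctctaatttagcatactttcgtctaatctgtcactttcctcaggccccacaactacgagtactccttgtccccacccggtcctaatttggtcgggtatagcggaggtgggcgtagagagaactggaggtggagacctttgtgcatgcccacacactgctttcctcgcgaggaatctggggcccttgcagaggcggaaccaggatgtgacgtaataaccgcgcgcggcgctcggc
NDUFA9: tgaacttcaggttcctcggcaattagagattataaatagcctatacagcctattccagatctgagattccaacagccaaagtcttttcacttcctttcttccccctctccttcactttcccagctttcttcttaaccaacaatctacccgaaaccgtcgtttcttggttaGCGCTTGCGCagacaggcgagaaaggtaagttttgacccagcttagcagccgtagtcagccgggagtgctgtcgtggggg
COX7B: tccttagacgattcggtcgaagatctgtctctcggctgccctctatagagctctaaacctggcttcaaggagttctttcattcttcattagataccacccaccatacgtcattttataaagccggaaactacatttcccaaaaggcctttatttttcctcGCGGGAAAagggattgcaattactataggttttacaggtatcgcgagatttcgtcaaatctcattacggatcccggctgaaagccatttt
NDUFA9, a subunit near the joint of the arms of complex I, was at 1154, 1480 and 1917 CP20M in the lowest, median and highest DMSO libraries of the sensitive lines and at 560, 1104 and 1355 with palbociclib. It was lower by 0.51 ± 0.09 (SE, log2, adjusted p = 0.00035), which is under 1.5-fold.

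**Figure D2:**
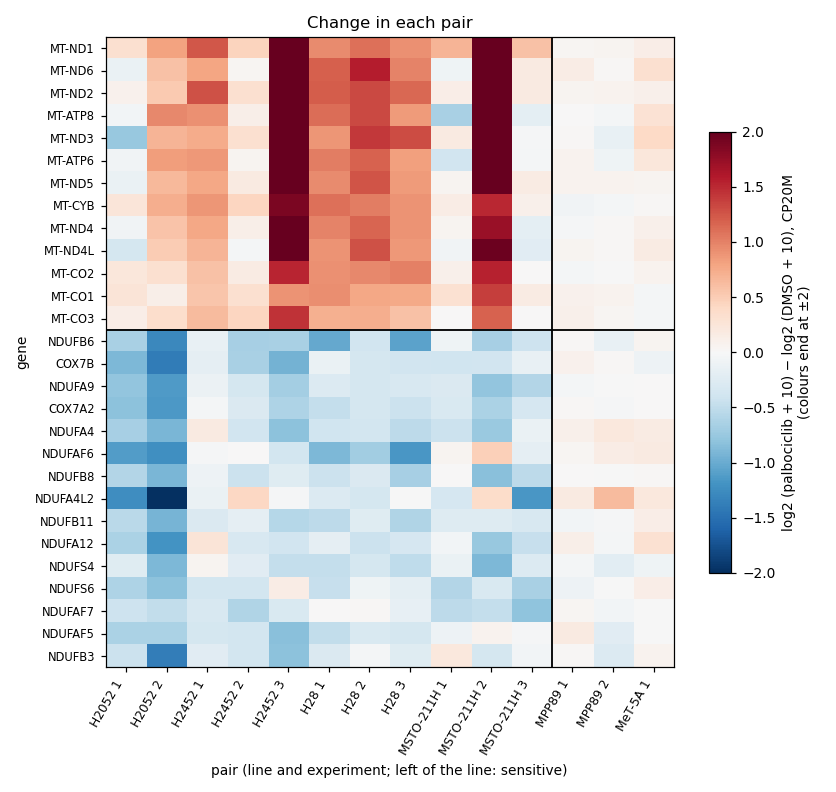
Change of log2(CP20M + 10) with palbociclib in each of the 14 pairs for the 13 mitochondrial genes (top rows) and 15 nuclear genes with the lowest estimates in the sensitive lines (bottom rows). Red is higher and blue lower with palbociclib, with colours ending at 2 in either direction; H2452 3 and MSTO-211H 2 are darkest for the mitochondrial genes, H2052 2 for the nuclear genes, and the 3 resistant pairs are pale.

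The regulators of these genes had mostly negative estimates under the deposited scaling, where the median of all genes was itself -0.11. Of 9 regulators of mitochondrial biogenesis, 2 fell (9.37% of all genes fell) and 7 were lower at FDR under 0.05 (33.7% of all genes). NRF1, the factor whose motif is named above, was at 217, 304 and 393 CP20M in the lowest, median and highest DMSO library and at 133, 194 and 241 with palbociclib, a fall of 0.63 (log2, adjusted p = 5.8e-05). PPARGC1A, a coactivator of NRF1, fell by 0.75 (adjusted p = 0.012), but its median was 29 CP20M in DMSO and 7 with palbociclib and only few libraries had it in quantity. The others were GABPB1 (-0.57), PPRC1 (-0.36), PPARGC1B (-0.30, adjusted p = 0.34), GABPA (-0.26), YY1 (-0.22), ESRRA (-0.19) and NRIP1 (-0.10, adjusted p = 0.47).

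For the lists that follow, the same shares of all genes apply, 9.37% that fell, 33.7% lower at FDR under 0.05 and 5.58% that rose. The calls of regulators and lists are those of the deposited scaling. Falls close to the fold limit may depend on it, as the call of NDUFB6 did. Of 16 genes for the transcription and replication of mitochondrial DNA 2 fell, TFAM, which packages mitochondrial DNA and starts its transcription, by 0.73 (adjusted p = 2.5e-05), and MGME1, a mitochondrial exonuclease, by 0.65, and 13 were lower at FDR under 0.05. TFAM was at 1030, 1378 and 1918 CP20M in DMSO and at 546, 841 and 1318 with palbociclib. Of 78 mitoribosome genes 11 fell (MRPL48 by 0.95, MRPL11 by 0.95) and none rose, a share not far above that of all genes. Of 17 genes for mitochondrial RNA processing and stability 0 were called, and of 18 nuclear ATP synthase genes and 14 of the citric acid cycle 0 were called. Of 40 assembly factors outside the name rule 2 fell, ECSIT of complex I by 1.05 and COX20 of complex IV by 0.71. CYC1, the cytochrome of complex III, was lower by 0.51. In the other products of the mitochondrial genome, 15 of 22 tRNA rows rose, MT-TL1 by 1.32 and MT-TD by 1.15, while neither rRNA was called (MT-RNR1 0.38, adjusted p = 0.54, MT-RNR2 0.61, adjusted p = 0.094). Proliferation genes fell in 5 of 5 cases, and MKI67, a marker of cycling cells, fell by 3.10. Their part in the changes of the respiratory chain genes was not tested.

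The balance of both genomes can be read in a single library as the ratio of the summed mitochondrial to the summed nuclear CP20M. It had no test. H28 had ratios of 1.54, 1.71 and 2.10 in DMSO and of 2.97, 3.49 and 3.76 with palbociclib. MSTO-211H had 1.32, 0.782 and 1.61 in DMSO, then 1.49, 3.04 and 1.83 with the drug. H2452 went from 0.922, 1.35 and 1.21 to 1.57, 1.91 and 5.33, and H2052 from 0.815 and 0.885 to 1.09 and 1.69. The treated libraries were thus above the DMSO ones within each line but MSTO-211H, where the groups overlapped. It was higher with palbociclib in 11 of 11 pairs, by 0.90 ± 0.64 on the log2 scale (SD, n = 11), 1.87-fold, with single pairs from 0.17 to 2.14. Without H2452 experiment 3 and MSTO-211H experiment 2 the mean was 0.64 ± 0.33 (SD, n = 9). The mitochondrial sum was higher in 11 of 11 pairs (mean 0.73) and the nuclear sum lower in 11 of 11 (mean -0.17, from -0.53 to -0.0015). The nuclear sum was nearly level in H28 1 (-0.0015), H28 3 (-0.0034) and MSTO-211H 1 (-0.0052). Unlike the ratio, each sum depends on the scaling of the library. By line, the mean change of the ratio was 1.14 for H2452, 0.94 for H28, 0.77 for MSTO-211H and 0.67 for H2052. H28 was the steadiest, with 0.84 to 1.03 over its 3 pairs, and MSTO-211H the least, with 0.17, 1.96 and 0.18.

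**Figure D3:**
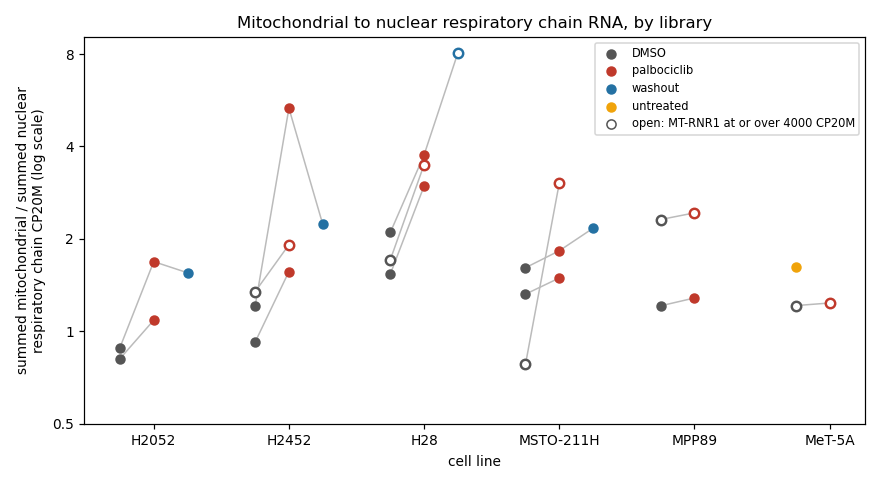
Ratio of summed mitochondrial to summed nuclear respiratory chain CP20M in each of 33 libraries (log axis), by cell line and treatment, with lines joining libraries of 1 experiment. Open circles have MT-RNR1 at or over 4000 CP20M; the ratio lies higher with palbociclib in the 11 sensitive pairs, is nearly level in the 3 resistant pairs and reaches 8.07 in the H28 washout library.

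The steepest pairs differed from the others in composition as well. In palbociclib library 3 of H2452 MT-CO1 made up 25.4% of the mitochondrial sum and in library 2 of MSTO-211H 26.8%, and over all 33 libraries its share ran from 25.4% to 50.4%. MT-ND6 rose in these pairs by 1.68 and 1.26 more than the other mitochondrial genes together (log2). In H2452 experiment 3 the mitochondrial rRNA was also higher with palbociclib, by 3.09 on the log2 scale (MT-RNR1 from 55 to 1160 CP20M), the most of any pair, while in MSTO-211H experiment 2 it changed by 0.23. The ratio rose by 0.83 ± 0.58 (SD, n = 7) after 9 days and by 1.02 ± 0.82 (SD, n = 4) after 10, and by 1.17 ± 0.74 (n = 3) in the pairs with high MT-RNR1 and 0.80 ± 0.63 (n = 8) in the others. The part of day and of mitochondrial rRNA in these changes was not tested. Without the pairs with high MT-RNR1, 5 of 13 mitochondrial genes were called and 8 were higher at FDR under 0.05, and 3 nuclear genes fell (NDUFB6, NDUFA4L2 and NDUFAF6). Of all 17803 genes, 977 were then called higher and 2129 lower.

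Taken line by line, the calls fell on different genes. H28 had 12 of 13 mitochondrial genes called higher, against 5.89% of all genes, with log2 changes of 0.68 (MT-CO3) to 1.25 (MT-ND6), and only MT-CO1 missed the FDR (0.82, adjusted p = 0.051). H2452 had a median of 1.12, against 1.01 in H28, but 0 called, and without its experiment 3 the median was 0.48. This stood beside 6.04% of all genes called higher. MSTO-211H (median 0.62, or 0.05 without experiment 2, 5.90% of all genes) and H2052 (0.26, 4.67%) also had 0 called. For nuclear genes most calls were in H2052, which also had the largest share of all genes called lower. In H2052 13 of 74 fell, not far above the 13% of all genes. Their median was -0.45 beside -0.24 for all genes of that line. With median-of-ratios scaling none of these falls was called, and NDUFC2 was called higher there. The H2052 calls were led by NDUFA4L2, the inducible counterpart of NDUFA4, and by NDUFAF6 and COX7B. NDUFA4L2 fell there by 1.66 from a low level of 47 and 128 CP20M in DMSO to 14 and 23. In H2452 3 nuclear genes fell (NDUFAF8, NDUFS8 and NDUFV2, against 10.8% of all genes), in H28 1 (NDUFAF6, against 7.34%) and in MSTO-211H 1 (NDUFAF7, against 7.94%). NDUFAF7, NDUFAF8 and NDUFV2 are named after their values were seen. With 2 pairs, the H2052 count ranged from 0 to 25 over the alternative settings.

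Whether the response differed among the 4 sensitive lines was tested with an F test. It did for 29 of 74 nuclear genes, against 37.1% of all genes, and for 0 of 13 mitochondrial genes, so the share of nuclear genes was near that of all genes. The clearest was NDUFS8, an iron-sulphur subunit of complex I (adjusted p = 0.0017). In H2452 it went from 1920, 1750 and 1854 CP20M to 1267, 1164 and 1065, and in H2052 from 1919 and 1895 to 1387 and 1208. In H28 it went from 1091, 1044 and 1078 to 1170, 1228 and 1215, the opposite direction, and in MSTO-211H it was nearly level (mean change 0.03). The groups did not overlap in H2052, H2452 or H28. NDUFA5 (adjusted p = 0.0027) was lower in H2052 (-0.75) and MSTO-211H (-0.58) and not in H2452 (0.10) or H28 (0.14). NDUFV1, the NADH-binding subunit, changed by -0.60 in H2052 and -0.40 in H2452, against -0.00449 in H28 and 0.15 in MSTO-211H. NDUFAF6, an assembly factor, changed by -1.17 in H2052 and -0.92 in H28, against -0.13 in H2452 and 0.12 in MSTO-211H. For NDUFAB1, the mitochondrial acyl carrier protein, the values were -0.82 in H2052, -0.51 in H2452, -0.28 in MSTO-211H and 0.13 in H28.

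In the resistant lines the log2 changes of these genes lay close to 0. In MPP89 MT-ND1 was at 2458 and 6637 CP20M in DMSO and at 2515 and 6922 with palbociclib, and in MeT-5A at 3971 and 4349. The pair of MPP89 experiments differed far more from each other than DMSO from palbociclib. The ratio of mitochondrial to nuclear sums was 1.21 and 2.31 in MPP89 DMSO and 1.28 and 2.43 with palbociclib, and 1.21 and 1.24 in MeT-5A, a log2 change of 0.03 to 0.08. The median change over the resistant pairs was 0.07 for the mitochondrial and -0.01 for the nuclear genes. By limma 0 respiratory chain genes were called, but so were 0.00% of all genes, in MPP89 alone and in both lines together. At an unadjusted p under 0.05 there were 918 and 1258 genes, 2 of them mitochondrial and 6 nuclear respiratory chain genes in the joint fit. These counts thus do not separate the genes from the rest. On simulated data the MPP89 fit recovered 0% of 2-fold changes, so its count of 0 cannot show that no gene changed.

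The difference between sensitive and resistant lines was tested as an interaction, which called 9.37% of all genes, 1.56% as higher and 7.81% as lower in the sensitive lines. It called 0 of 13 mitochondrial genes: the estimated differences were all above 0, from 0.53 (MT-CO3) to 1.04 (MT-ND1), but with 3 resistant pairs and the scatter between sensitive experiments their errors were wide, 0.41 for MT-ND1 (adjusted p = 0.12), and the lowest adjusted p was 0.090 for MT-CYB. The mitochondrial rise was thus not shown to differ between sensitive and resistant lines, with all genes as the family of tests. Of the nuclear genes 1 was called, NDUFA4, first described in complex I and now placed in complex IV. In sensitive lines it was at 638, 1680 and 1979 CP20M in the lowest, median and highest DMSO library and at 354, 1081 and 1704 with palbociclib, lower in 10 of 11 pairs. In MPP89 it was at 746 and 997 in DMSO and 800 and 1158 with palbociclib, and in MeT-5A at 928 and 1039, so it was higher in 3 of 3 resistant pairs. The difference was -0.63 ± 0.18 (SE, log2, adjusted p = 0.039), and it was not called under several other settings (adjusted p 0.053 to 0.65).

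At 48 h after washout the mitochondrial genes were above DMSO in 4 of 4 lines, but 0 of 13 were called. Of the nuclear genes 3 were called below DMSO, near the share of all genes called lower. In MSTO-211H experiment 3, MT-ND3, MT-ND4, MT-ND4L, MT-ATP6 and MT-ATP8 had been below DMSO with palbociclib. MT-ND4, for example, was there at 20109 CP20M in DMSO, 17655 with palbociclib and 22382 after washout. Compared with the palbociclib libraries of the same experiments, 0 of the respiratory chain genes changed, against 1.40% of all genes, each of them higher. With 1 library per line such a fit has few residual degrees of freedom. Compared with DMSO, 3 nuclear genes fell, against 2.95% of all genes that fell: NDUFA9 (-0.63 ± 0.12 SE, adjusted p = 0.013), COX7B (-0.65, adjusted p = 0.044) and NDUFA4 (-0.60, adjusted p = 0.023). After washout NDUFA9 was at 1331 CP20M in MSTO-211H, 899 in H2452, 852 in H28 and 677 in H2052, and each value was below the DMSO library of its experiment. Of the mitochondrial genes 0 of 13 were called, against 2.81% of all genes called higher and 5.76% called in either direction, although each was higher than in DMSO in 4 of 4 lines and their median was 0.97, or 0.58 without H28. MT-ND1 was higher by 2.05 in H28, 1.11 in H2452, 0.75 in MSTO-211H and 0.62 in H2052 (mean 1.13 ± 0.37 SE, adjusted p = 0.075), and the mean without H28 was 0.83. H28 washout had the highest mitochondrial sum of the 33 libraries (692474 CP20M, ratio 8.07), above its palbociclib pair, whereas in H2452 the ratio went from 5.33 with palbociclib to 2.23, in H2052 from 1.69 to 1.55 and in MSTO-211H from 1.83 to 2.17. Washout and palbociclib were both compared with the same DMSO libraries. Without the line as a block, or with median-of-ratios scaling, 0 nuclear genes were called, and with any 1 line left out 0 or 1.

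Per kilobase of exon (GENCODE 44 exons), MT-CO1 had the highest level in the DMSO libraries, 20183 CP20M per kb in H2052 to 39700 in H28. MT-CO2 (median over lines 15652 per kb) and MT-CO3 (13471) came next, and MT-ND2 was lowest of the 13 (2490). The highest nuclear gene was COX8A, with 4170 per kb as its median over lines, and the median nuclear gene was far lower. Exon lengths of nuclear genes include rarely used exons, which lowers their values per kilobase.

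The lines themselves differed in the level of most of these genes in DMSO: 68 of 74 nuclear and 11 of 13 mitochondrial genes, against 95.6% of all genes. H28 had the highest mean of all 13 mitochondrial genes, and against the mean of the other lines 12 of 13 were higher by over 1.5-fold there (19.7% of all genes higher). H2052 and H2452 had 6 each lower, against 22.5% and 29.3%. The lowest line was H2052 or H2452 for each of the 13. The order of the other lines varied by gene: per kilobase, MPP89 was level with H28 for MT-CO2 (19124 and 19134 CP20M per kb), and for MT-CO1 H2452 (28611) was above MSTO-211H (27614) and MeT-5A (22975). Their log2 range between line means was from 0.98 (MT-CO1) to 2.60 (MT-ATP8), and MT-CO1 and MT-ND4 did not pass the F test. For nuclear genes the lines differed in both directions. MPP89 had 23 of 74 lower (14% of all genes) and 2 higher (24.4%). MeT-5A had 11 higher (24.3%) and 1 lower (15.8%), and over both directions 40.2% of all genes were called there. H28 had 13 higher and 7 lower (29.6%), with 49.3% of all genes called, and H2052 had 9 higher (20.5%) and 15 lower, with 43.0% called. Each of these shares of nuclear genes but MPP89 lower was at or under that of all genes.

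The widest nuclear range was that of NDUFA4L2, a hypoxia-inducible relative of NDUFA4. Its DMSO libraries were at 3613, 3070 and 4386 CP20M in H28, at 121, 116 and 106 in H2452, at 47 and 128 in H2052, at 44, 42 and 80 in MSTO-211H, at 34 and 58 in MPP89 and at 34 in MeT-5A. H28 thus stood alone, and the others overlapped in part. NDUFC1, a small membrane subunit of complex I, was lowest in H2452 (195 ± 35.4, SD, n = 3) and highest in MPP89 (1585 and 2178), with MeT-5A next (1099). UQCRC2, a core subunit of complex III, was at 566 and 653 CP20M in MPP89 and between 2076 and 4434 in the DMSO libraries of the other lines. COX6B2, the testis form of a complex IV subunit, was at 117 and 178 in MPP89 and 90 in MeT-5A, while in the 4 sensitive lines it was between 5 and 24. It was tested only because MPP89 and the untreated MeT-5A library (166) passed the minimum of 100 CP20M, so its place among the widest ranges is a description, and COX7A1 with its maximum of 90 had no such place. NDUFB9, an accessory subunit of complex I, ran from 590 ± 37.2 (SD, n = 3) in H2452 to 3092 and 3107 in H2052. For these 5 genes palbociclib shifted the level far less than the line did.

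**Figure D4:**
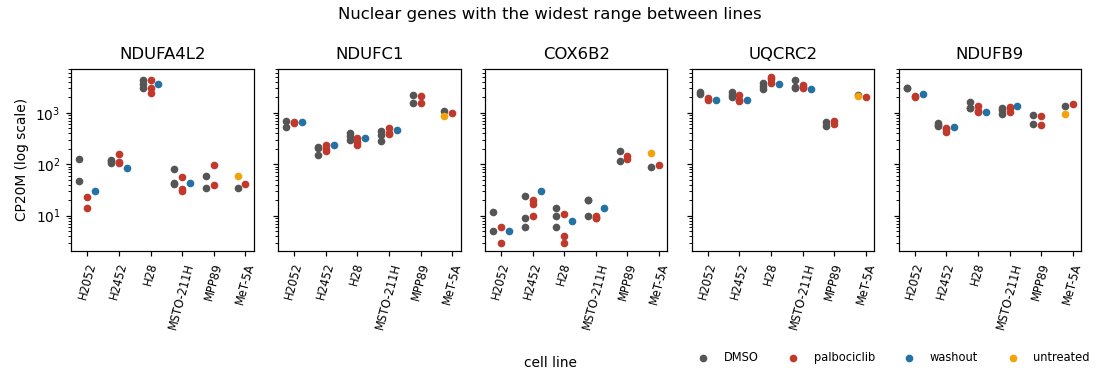
CP20M (log axis) of the 5 nuclear respiratory chain genes with the widest range between line means in DMSO, in each library by line and treatment. NDUFA4L2 is above 2000 CP20M in each H28 library and under 200 elsewhere, UQCRC2 is low in MPP89, COX6B2 is over 80 in MPP89 and MeT-5A alone.

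Levels of nuclear genes were set beside those of their neighbours, and the likeness was partial. For each line, the level of a respiratory chain gene against the other lines was compared with the median of the non-member genes within 5 Mb of it. Across the 74 genes Spearman's rho was 0.80 for H2052, 0.71 for MPP89, 0.70 for H2452, 0.60 for MSTO-211H, 0.56 for MeT-5A and 0.42 for H28. These are descriptions across genes, some of which share neighbours, and no copy number was measured in these libraries. The 4 members on chromosome 8, NDUFB9, NDUFAF6, UQCRB and COX6C, were all lower in H2452, by 1.10 to 1.30 on the log2 scale, where the median of 618 other genes of that chromosome was -0.86. The 8 rows on chromosome 11 (NDUFS3, NDUFS8, NDUFV1, COX8A, NDUFC2 and its readthrough, and both SDHD rows) were all higher in H2052, by 0.28 to 1.07, beside a median of 0.59 for 975 other genes. NDUFA4, NDUFA5 and NDUFB2 on chromosome 7 were lower in H2052, by 0.80 to 1.27, beside -0.75 for 856 genes. These chromosomes are examples chosen after their values were seen. Over 11 chromosomes with at least 3 members and 6 lines, the median of the members and that of the other genes had the same sign in 45 of 66 cases and opposite signs in 21. In MPP89 the members on chromosome 19 had a median of -0.14 beside 0.47 for 1335 other genes, and those on X one of -0.61 beside 0.46. Single levels also stood apart from their neighbours: NDUFA4L2 in H28 was 5.71 above the other lines with a neighbour median of -0.18, and UQCRC2 in MPP89 was at -2.14 with a neighbour median of -0.25.

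**Figure D5:**
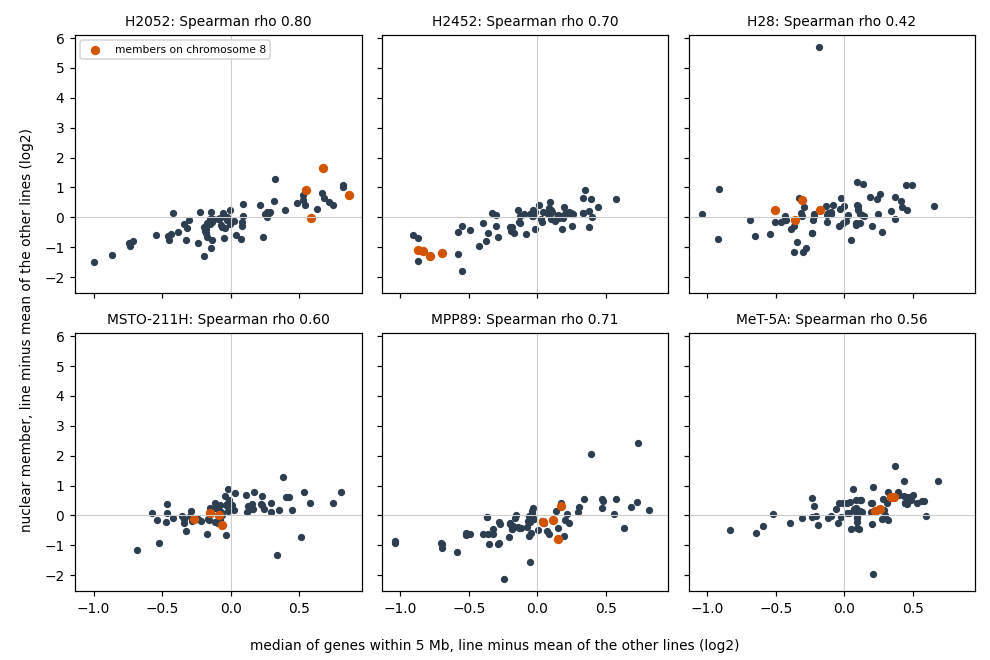
Level of each of 74 nuclear respiratory chain genes in DMSO, line minus mean of the other lines (log2), against the median of the same difference over other genes within 5 Mb, 1 panel per line. Orange points are the 4 genes of chromosome 8; points rise from left to right, most steeply in H2052 (rho 0.80) and least clearly in H28 (rho 0.42), where NDUFA4L2 lies at 5.71.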

How the data were processed

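Total RNA (100 ng) of 33 cultures was sequenced with a directional kit, and how mRNA was selected is not given in the sources used here. Per the labels and the study's methods, the authors trimmed reads (Trimmomatic 0.36), aligned them to GRCh38 (STAR 2.5.3), counted them on Ensembl 90 genes (HTSeq 0.9.1) and tested paired libraries with DESeq2. The deposited values are CP20M, counts scaled to 20000000 per library and rounded up, treated here as a score and not as counts.

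Genes with at least 100 CP20M in 1 of 33 libraries (17803) were tested on log2(CP20M + 10) with limma 3.58.1 (R 4.3.3; lmFit, eBayes with trend), with line and experiment as a block and Benjamini-Hochberg adjustment over all of them. Fold changes on this scale understate changes of low genes. A call needed FDR under 0.05 and, except for the interaction and the F tests, 1.5-fold. The labels number the experiments. Paired libraries deviated together (correlation 0.18 to 0.78), so the block was kept. Named genes were the 13 mitochondrial genes, SDHA to SDHD, isoform sets, regulators, and up to 5 called nuclear genes per comparison by size or adjusted p, plus others said to be chosen later. The members and lists were chosen with earlier results of these data known. The scripts were tested on simulated data. There the fit over the sensitive lines recovered 50% of 1.5-fold and 100% of 2-fold changes. The MPP89 fit recovered 0% of either, 10% of 3-fold and 46% of 4-fold changes. Figures used Python 3.11.15 with matplotlib 3.10.9. Alternatives were pseudocount, filter, scaling, block, trend, shared fits, line means as units and left-out libraries.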

Additional observations from a re-analysis of the deposited data

Results flagged for a closer look

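The response of NDUFA4 differed between sensitive and resistant lines, by -0.63 on the log2 scale (limma interaction, adjusted p = 0.039, lower in 10 of 11 sensitive pairs and higher in 3 of 3 resistant pairs). The response of 29 nuclear respiratory chain genes differed among the 4 sensitive lines (limma F test), a share near the 37.1% of all genes called by it. The smallest adjusted p were those of NDUFS8 (0.0017), NDUFA5 (0.0027), NDUFV1 (0.0029), NDUFAF6 (0.0051) and NDUFAB1 (0.0082). Both use the calls of the report and are weighed no further.

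For 16 respiratory chain genes and the ratio of sums, the 4 line values of washout against DMSO and against palbociclib were checked, 34 checks in all, and 3 had a value far from the others, the H28 change from DMSO to washout. The gap to the next line, as a fraction of the range over 4 lines, was 0.914 for MT-ND5, 0.942 for MT-ND6 and 0.849 for MT-CO1, past the limit of the test for 4 values in each case. Chance gives about 1 such value in 20 groups, and the genes share 1 library. The H28 washout library had MT-RNR1 at 4355 CP20M, the highest of the 4 washout libraries, and its part in these values was not tested.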

How the results depend on the processing

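Without the replicate block, the count of nuclear respiratory chain genes went from 29 to 8 for the response among the sensitive lines. All genes called there went from 6601 to 2612 of 17803. For washout against DMSO the nuclear count went from 3 to 0. NDUFA4 lost its interaction call (limma adjusted p = 0.14) and NDUFB11 was called in its place. The interaction called 1294 of all genes without the block and 1668 with it. With median-of-ratios scaling the nuclear counts were 0 (sensitive lines), 0 (interaction), 11 (among lines), 1 (H2052, NDUFC2, called higher), 0 (H2452), 0 (MSTO-211H) and 0 (washout against DMSO), the mitochondrial counts 2 (interaction), 2 (H2052) and 2 (H2452), and the estimates of SDHA (0.15), COX4I1 (0.0656), COX6A1 (0.11) and COX7A2L (0.13) turned positive. A pseudocount of 50 gave nuclear counts of 0 (sensitive lines), 1 (H2452), 2 (H28) and 0 (MSTO-211H), and one of 1 gave 0 (H2052) and 5 (washout against DMSO). Without a filter on low values the nuclear counts were 0 (interaction), 13 (among lines), 0 (H2052) and 0 (MSTO-211H), and the mitochondrial count for levels in DMSO was 6. Filtering within each fit gave 25 nuclear genes in H2052, 2 in H28 and 7 mitochondrial genes in H2452. Without the trend, nuclear counts were 0 for the interaction, H2052 and MSTO-211H, and scaling without mitochondrial genes gave 0 in MSTO-211H. A single fit over all lines gave 25 (H2052) and 2 (H28) nuclear and 9 (H2452), 6 (H28) and 2 (MSTO-211H) mitochondrial genes. Calls over all genes moved too. Among lines, 6005 of 17803 were called with median-of-ratios scaling and 5697 of 45288 without the filter. For the interaction these were 1276 of 17803 and 1104 of 47089, and 1485 of 17803 without the trend. Over the sensitive lines 2673 were called with median-of-ratios scaling and 1687 with a pseudocount of 50.

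Leaving out each experiment in turn gave 8 to 13 mitochondrial and 0 to 1 nuclear genes over the sensitive lines, lowest without MSTO-211H 2 (8) and H2452 3 (9), and 0 nuclear without H2052 2. Of all 17803 genes 2444 to 2876 were called in these fits. The ranges were 0 to 6 (interaction, nuclear), 13 to 29 (among lines, nuclear), 0 to 1 (washout against DMSO, nuclear), 7 to 13 and 64 to 69 (levels in DMSO, mitochondrial and nuclear), and 0 in each case within H2452, H28 and MSTO-211H, where the 12 mitochondrial calls of H28 were lost with 2 pairs left. The interaction count was 6 without MSTO-211H 1 and 0 without H2052 1, H2452 3, MPP89 1, MPP89 2 or MeT-5A 1. Of all 17803 genes 1983 were called without MSTO-211H 1, 1352 without H2052 1 and 1411 without H2452 3. Without MPP89 1, MPP89 2 or MeT-5A 1 only 194, 242 and 177 of all genes were called, against 1668 with all pairs. The 0 in those fits thus does not set the nuclear respiratory chain genes apart. The among-lines count was 13 without H2052 2 or H28 1, where 4647 and 4598 of all genes were called, against 6601 in the main fit. The ratio rose by 0.78 to 0.97 in sensitive and 0.05 to 0.08 in resistant pairs. The estimates of COX6B1 (0.01) and SDHA (-0.05) ranged, with 1 experiment left out or with H2452 3 and MSTO-211H 2 left out together, from -0.00541 to 0.0512 and from -0.0940 to 0.0203. Chosen after seeing the data, leaving out the pairs with high MT-RNR1 gave 5 mitochondrial and 3 nuclear genes over the sensitive lines. Of all genes 3106 were called there. For the interaction this left MPP89 1 as the only resistant pair, so no count is given. Leaving out H2452 3 with MSTO-211H 2, also chosen after seeing the data, gave 3 mitochondrial genes over the sensitive lines, with 2589 of all genes called. The cause of these changes was not tested. Leaving out a pair in H2052 or MPP89 alone was not run, since 1 pair would remain. Each sensitive line had 2 or 3 pairs and 1 washout library, which limits precision, and depth limits the low genes such as COX6B2.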
